A study of Homo sapiens with 24 samples.

Results

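Ribosomes are assembled in the nucleolus by a large set of proteins that fold, cut and modify the ribosomal RNA precursors, and 46 listed genes of this set were followed here through transcription arrest and depletion of IGF2BP proteins. The rule names nucleolar ribosome assembly factors and uses no measured value, although the list was drawn up with earlier results of these data known. All 46 were found among the 58676 gene rows of the count files and among the 13136 genes that passed the filter on low counts. RNA was sequenced from the human hepatoma line HepG2, whose cells had received a control siRNA (siControl, the AllStars negative control) or siRNA against IGF2BP1 (siIGF2BP1), IGF2BP2 (siIGF2BP2) or IGF2BP3 (siIGF2BP3), RNA-binding proteins that affect the stability of their target mRNAs. Every group, controls included, was exposed to actinomycin D, an inhibitor of transcription, at 5 µg/ml for 0, 3 or 6 h before collection, which gave 12 groups of 2 libraries. The plates of the 3 times came from re-seeding of a transfected plate, and the study calls the 2 replicates of a group independent without saying whether they were separate transfections. The p-values measure the spread between these libraries, which may in part be technical.

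The small-subunit factors act in the small-subunit processome, a particle that forms on the nascent precursor around the U3 small nucleolar RNA. It is built from modules, among them the UtpA and UtpB complexes and the MPP10 complex, in which MPHOSPH10 holds IMP3 and IMP4, with UTP3 (the human Sas10) beside them. The box C/D and box H/ACA particles (snoRNPs) modify the precursor, the PES1-BOP1-WDR12 complex and its neighbours mature the large subunit, and NPM1 and NCL are abundant nucleolar proteins with many further functions. Expression of many of these genes is known to rise with cell growth and to respond to MYC.

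The libraries held 31843248 to 74252042 gene reads and 50889 to 119088 reads of the ERCC spike-ins, synthetic RNAs added per amount of total RNA. Replicates correlated with Pearson's r from 0.996 to 0.998 over genes, and differed by more than sampling noise in all 12 groups. The targeted mRNA was left at 20.9% of its siControl level for IGF2BP1, 26.1% for IGF2BP2 and 35.4% for IGF2BP3 at 0 h. Of the listed hepatocyte markers, ALB was at least 10735 CPM (counts scaled to the library total) in every library. TTR was the lowest of that list at 38.6 to 77.6 CPM, and HNF4A was next at 252 CPM or more. Among the listed markers of other cell types, PTPRC, which marks blood cells, did not exceed 0.018 CPM. CD14 reached 2.11 CPM, and ACTA2 ran from 29.1 to 42.6 CPM.

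Motif matches in short-lived and long-lived members are shown with their sequence, so that the letters can be compared. TGTANATA is the core of the sequence that the Pumilio proteins bind in 3′ UTRs, and it was searched on the transcript strand of the 3′ UTR of each gene's canonical GENCODE transcript (release 44, GRCh38). It was present in 11 of 45 members (24.4%), against 30.1% of 10966 measured genes. Among the 13 members with a half-lifetime under 3 h, 5 held it, and the 30 bases around a match follow, with the match in capitals and all in the 3′ UTR exon: MPHOSPH10 (chr2:71150021-71150050, plus strand), WDR43 (chr2:28946931-28946960, plus strand), BRIX1 (chr5:34925541-34925570, plus strand), NOP16 (chr5:176383967-176383996, minus strand) and UTP15 (chr5:73581021-73581050, plus strand). IMP4 (chr2:130347892-130347921, plus strand), the longer-lived partner of MPHOSPH10, also held a match and is shown for contrast.
MPHOSPH10: tttgaatataaTGTAAATAttaatgtgtaa
WDR43: agacttgactgTGTAAATAagagtgtttca
BRIX1: tgtattcaatgTGTAAATActtttattatc
NOP16: agggtgggtgaTGTAAATAtagtgtgtaca
UTP15: taaaagtttaaTGTAAATAattatttttta
IMP4: ttttcccactcTGTAGATAtagccattgag
In MPHOSPH10 the match began at base 17 of a 3′ UTR of only 86 bases, and in IMP4 at base 1435 of 1499.

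The 3′ UTRs of the members were short, with a median of 493 bases over 44 members against 1454 bases over all genes with a half-lifetime. Of those 11039 genes, 10012 had a 3′ UTR length. Under 3 h, TGTANATA was in 38.5% of the members and 43.8% of all genes; at 3 h or longer it was in 18.8% of the members and 26.4% of all genes. TATTTAT, a word of AU-rich elements, was in 8 of 45 members (17.8%) against 35.5% of all genes. The shorter word inside it, ATTTA, was in 27 of 45 members (60%) against 72.9% of all genes. A match is a description of the letters and no measure of binding.

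CACGTG, the palindromic E box that MYC and MAX recognise, was searched in the 250 bases before and 50 after the start site of each gene in RefSeq (GRCh38.p14), where it reads the same on both strands. Promoters were listed for 38 members, of which 14 held it (36.8%), against 7.43% of 27305 promoters and 10.4% of the 9360 promoters of genes with a measured half-lifetime. Windows of 4 members, chosen to span short and long half-lifetimes, are shown with the E box in capitals: WDR43 (chr2:28894658-28894687, plus strand), IMP4 (chr2:130342900-130342929, plus strand), NOP10 (chr15:34343130-34343159, minus strand) and FBL (chr19:39846356-39846385, minus strand).
WDR43: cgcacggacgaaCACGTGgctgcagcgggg
IMP4: ttctcccggaccCACGTGgaagcggcactc
NOP10: gaaattgacgaaCACGTGacgcggtcgggc
FBL: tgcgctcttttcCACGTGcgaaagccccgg
The centre of the E box lay 6 bases after the start site in WDR43, 18 after it in IMP4, 9 after it in FBL and at -8 in NOP10. Of the 37 members with both a listed promoter and a measured half-lifetime, 2 of 11 under 3 h and 11 of 26 at 3 h or longer held the E box. Over all genes with both, the shares were 10.2% under 3 h and 10.4% at 3 h or longer. A link between E box and half-lifetime was not tested.

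Before actinomycin D, the members were abundant mRNAs. Per length (CPM per kilobase of the canonical mRNA, RPKM), their median level in siControl at 0 h was 38.8, against 7.39 over 13094 tested genes. The order was led by NPM1 at 1483 ± 3.72 RPKM, NCL at 790 ± 2.86 RPKM and NOP56, a core protein of box C/D particles, at 435 ± 8.61 RPKM (SD, n = 2 here and at each level below). It ended with PPAN at 1.51 ± 0.0272 RPKM and NOP2, an rRNA methyltransferase, at 0.330 ± 0.0576 RPKM. PPAN shares 49.2% of its exon bases with P2RY11 and a readthrough gene on the same strand, and NOP2 shares 54.4% with an unnamed gene, so both values are uncertain.

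Within the MPP10 complex the level ran from 124 ± 2.64 RPKM for MPHOSPH10 to 21.2 ± 1.21 RPKM for UTP3, with IMP4 (40.6 ± 0.771) and IMP3 (39.0 ± 0.661) close to each other. MPHOSPH10 was level with NOP58, a partner of NOP56, at 125 ± 2.83 RPKM, and these 2 neighbours did not differ beyond their spread. Among the UtpA and UtpB proteins WDR43 was highest (74.9 ± 0.267 RPKM) and UTP15 lowest (7.59 ± 0.154 RPKM). Among the other small-subunit factors the range was from NOP14 at 79.6 ± 1.94 RPKM to the helicase DDX52 at 8.43 ± 0.0403 RPKM.
The snoRNP proteins reached down to GAR1, of the box H/ACA particles, at 12.1 ± 0.0947 RPKM, and the multifunctional proteins down to NOLC1, a chaperone of snoRNPs, at 101 ± 0.782 RPKM. GNL3 (nucleostemin) was the most abundant large-subunit factor at 136 ± 0.484 RPKM.

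After transcription was stopped, the members ranged from mRNAs that were nearly gone by 6 h to mRNAs that had hardly moved, with most of them in between. On the ERCC scale, 44 of 46 members were lower over time in siControl (edgeR's quasi-likelihood test, adjusted p under 0.05 over all genes), against a background of 80.3% of all genes tested called lower and 80.6% called in either direction. The median change over 6 h was -1.002 (log2) for the members and -0.88 for all genes. The exceptions were FBL, the rRNA methyltransferase of box C/D particles, at -0.18 (SE 0.0854, edgeR adjusted p = 0.0635), and NHP2, of box H/ACA particles, at -0.02 (SE 0.0869, edgeR adjusted p = 0.810).

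Half-lifetimes were computed from the mean rate at 3 h and 6 h for 45 members (NOP2 was too low) and 12179 genes. Over the 44 members and 11039 genes with a value, the median was 6.69 h and 6.22 h, which leaves out genes that did not fall. With those genes counted as the longest, WDR12 at 6.78 h lay at percentile 48.4 of all genes and DDX18 at 7.14 h at percentile 50.1. The 2 medians therefore do not show longer half-lifetimes in the members. A half-lifetime under 3 h was found for 13 of 45 members (28.9%) and 21.1% of all genes. At the other end, 9 of 45 members (20%) and 34.7% of all genes exceeded 12 h or did not fall.

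**Figure D1:**
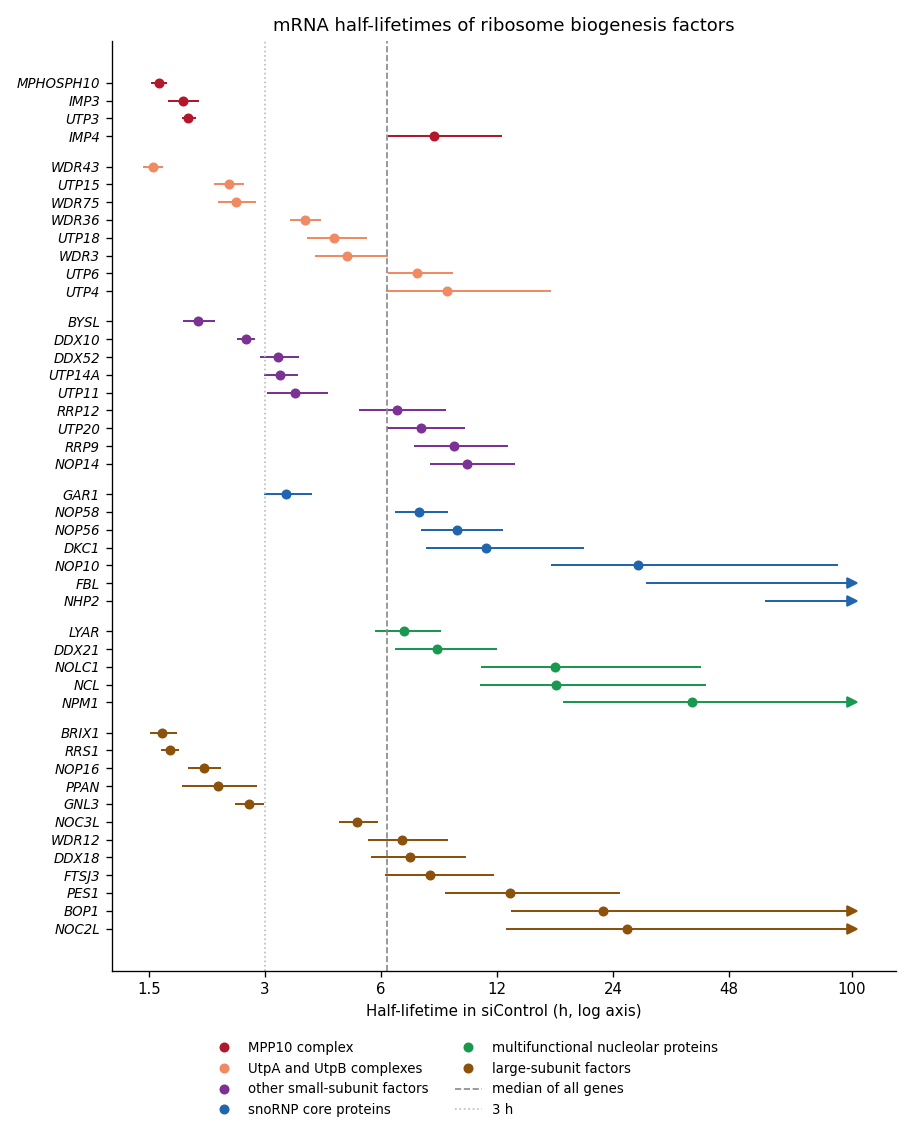
Half-lifetime of 45 members in siControl (points, h, logarithmic axis), with lines over the 8 combinations of a single library at each time and arrows where the line passes 100 h or a combination gave no fall. Groups are coloured by role, and most of the shortest values belong to the MPP10 complex, WDR43, BRIX1 and RRS1, whereas FBL and NHP2 lie beyond the axis.

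The 5 shortest half-lifetimes were those of WDR43, a UtpA protein, at 1.53 h (1.45 to 1.62 h over the 8 combinations of single libraries), MPHOSPH10 at 1.59 h (1.53 to 1.66 h), BRIX1, which acts on the large subunit, at 1.62 h (1.51 to 1.76 h), RRS1, which helps to load the 5S particle onto the large subunit, at 1.70 h (1.62 to 1.78 h), and IMP3 at 1.83 h (1.69 to 2.01 h). Their ranges overlapped, so that most of the order among these 5 was not resolved, but those of WDR43 and MPHOSPH10 lay wholly below that of IMP3. IMP3 here is the gene of the U3 particle and not IGF2BP3, which has also been called IMP3, and 58.1% of its exon bases lie opposite genes on the other strand, so its counts are uncertain: the alignment used strand, but the strand setting of the counting is not given in the sources used here.

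The 5 longest among those with a value were BOP1 at 22.5 h, NOC2L at 26.1 h, NOP10 at 27.9 h, NPM1 at 38.4 h and FBL at 470 h, and NHP2 did not fall. Their ranges were wide, from 13.1 to 102 h for BOP1 and from 16.6 to 91.6 h for NOP10. For NOC2L and NPM1 7 of the 8 combinations fell, and for FBL 4, the lowest of which gave 29.4 h, so that these 3 have no upper limit here. In percent of the 0 h mean, FBL stood at 93.3 and 83.7% in the 2 libraries at 6 h, and NHP2 at 103 and 93.7%. NHP2 overlaps RMND5B on the opposite strand over 28% of its exon bases.

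The role groups differed in their spread. In the MPP10 complex 3 of 4 members were under 3 h, and in the large-subunit factors 5 of 12 with a value, namely BRIX1, RRS1, NOP16 (2.08 h), PPAN (2.26 h) and GNL3 (2.72 h). In the UtpA and UtpB complexes 3 of 8 were under 3 h, with WDR43, UTP15 (2.41 h) and WDR75 (2.52 h) all on the UtpA side, whereas UTP4, also of UtpA, was at 8.90 h. The UtpB members WDR36 (3.80 h), UTP18 (4.53 h), WDR3 (4.89 h) and UTP6 (7.43 h) lay above 3 h. Among the other small-subunit factors BYSL (2.01 h) and the helicase DDX10 (2.67 h) were under 3 h and NOP14 was the longest at 10.0 h.

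Of the 7 snoRNP core mRNAs 0 were under 3 h, and their median was 11.2 h with NHP2, which did not fall, counted as the longest. GAR1 was the shortest of them at 3.40 h (3.00 to 3.95 h), while its partners in the same particle, DKC1, the pseudouridine synthase, and NOP10, were at 11.2 h and 27.9 h. The 5 multifunctional nucleolar mRNAs ranged from LYAR at 6.89 h to NPM1, with a median of 16.97 h. The PES1-BOP1-WDR12 complex, whose proteins act together on the large subunit, had half-lifetimes of 12.98 h for PES1, 22.5 h for BOP1 and 6.78 h for WDR12.

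As a description across members, half-lifetime ran with level (Spearman's rho 0.38 over 44 members, 0.30 over 11011 genes) and with the GC content of the 3′ UTR (0.39 over 44 members, 0.11 over 9992 genes). All points come from the same 6 siControl libraries, and level and decay share the same 0 h counts.

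The scale sets how a stable mRNA is read. With TMM scaling, which holds the bulk of mRNA constant in place of the spike-ins, 35 members were called, 12 higher and 23 lower over time, against 36.3% of all genes higher and 38.7% lower on that scale. NHP2, FBL, NOP10, NPM1, NOC2L and BOP1 then rose over 6 h by 0.84, 0.69, 0.63, 0.59, 0.48 and 0.40 (log2, edgeR adjusted p of at most 0.00500, that of BOP1). With scaling to gene reads NHP2, FBL, NOP10 and NPM1 rose as well, by 0.53, 0.37, 0.31 and 0.27, whereas NOC2L at 0.17 and BOP1 at 0.08 did not pass the test. MPHOSPH10 fell under both scales, by 3.82 with ERCC (SE 0.0984, edgeR adjusted p = 4.39e-18) and by 2.95 with TMM.

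The MPP10 complex was then followed across siRNAs. In siControl MPHOSPH10 (ENSG00000124383.8, chr2:71130310-71150101, plus strand) was at 27.9 and 27.3% of its 0 h mean at 3 h and at 7.40 and 6.73% at 6 h. At 6 h it was at 8.52 and 7.63% in siIGF2BP1, at 10.3 and 11.9% in siIGF2BP2 and at 13.1 and 11.6% in siIGF2BP3. On the ERCC scale, every knockdown library at 6 h lay above both siControl libraries, and those of siIGF2BP2 and siIGF2BP3 overlapped. In CPM at 6 h, MPHOSPH10 was at 28.03 and 27.37 in siControl and at 29.42 and 26.64 with siIGF2BP1, which overlapped. With siIGF2BP2 and siIGF2BP3 it lay above siControl in CPM too, at 148 and 168%, without overlap. From 1.59 h in siControl, the half-lifetime of MPHOSPH10 on the ERCC scale was 1.68 h with siIGF2BP1, 1.80 h with siIGF2BP2 and 2.03 h with siIGF2BP3.

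IMP4 (chr2:130342877-130347967, plus strand), which joins MPHOSPH10 and IMP3 in the same complex, lost far less. It was at 61.4 and 53.7% at 6 h in siControl, 67.0 and 62.4% with siIGF2BP1, 59.8 and 67.8% with siIGF2BP2 and 68.1 and 59.8% with siIGF2BP3. These libraries overlapped in part between siControl and siIGF2BP2 or siIGF2BP3, and the half-lifetime was 8.25, 8.65, 8.24 and 8.96 h in the same order.
IMP3 (chr15:75639085-75648706, minus strand) was at 7.64 and 9.72% at 6 h in siControl and at 13.1 and 10.98% in siIGF2BP3, which did not overlap. It was at 11.5 and 7.47% with siIGF2BP1, which overlapped siControl, and at 10.03 and 9.82% with siIGF2BP2, which did not. UTP3 (chr4:70688532-70690551, plus strand) was at 12.4 and 11.9% in siControl and at 16.4 and 17.1% in siIGF2BP3, again without overlap. With siIGF2BP2 it was at 16.8 and 16.2%, also above both siControl libraries, and with siIGF2BP1 at 16.5 and 11.6%, which overlapped them. These separations hold on the ERCC scale, where most genes were lost more slowly in the knockdowns. In CPM at 6 h, UTP3 overlapped siControl in every knockdown. IMP3 in CPM overlapped it with siIGF2BP1 and siIGF2BP2 but not with siIGF2BP3.

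**Figure D2:**
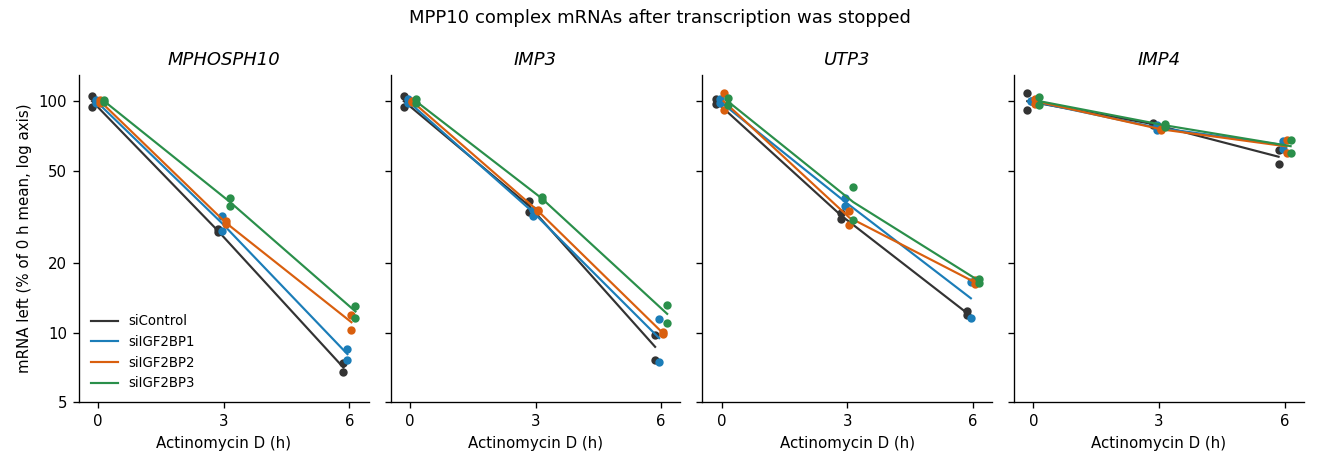
Percent of the 0 h mean left after 0, 3 and 6 h of actinomycin D (logarithmic axis) for the 4 mRNAs of the MPP10 complex, on the ERCC scale, with points for single libraries and lines through the means of 2. MPHOSPH10, IMP3 and UTP3 fell to 7.07, 8.68 and 12.2% in siControl at 6 h and IMP4 to 57.5%, and the siIGF2BP3 line is the uppermost for MPHOSPH10.

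The test of the difference in slope asked whether a knockdown changed the loss of an mRNA, with positive values for slower loss. In siIGF2BP3, 1 of 46 members was called, MPHOSPH10, at 0.80 (SE 0.133, edgeR adjusted p = 0.0199). In siIGF2BP2 MPHOSPH10 had a difference of 0.64 (SE 0.131, edgeR adjusted p = 0.177) and in siIGF2BP1 one of 0.19 (SE 0.133, edgeR adjusted p = 0.520). No member was called in siIGF2BP1 or siIGF2BP2, where unadjusted p was under 0.05 for 10 and 2 members, and for 18 in siIGF2BP3. The share of all genes at that limit was 10.9% in siIGF2BP1, 6.82% in siIGF2BP2 and 16.1% in siIGF2BP3. After adjustment, 0.0152% of all genes were called in siIGF2BP1, 0% in siIGF2BP2 and 0.0228% in siIGF2BP3. DESeq2 called 0 members in siIGF2BP1, 1 in siIGF2BP2 and 1 in siIGF2BP3, and the 1 was MPHOSPH10 both times, against 0.0305, 0.0457 and 0.206% of all genes.

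All 3 tests share the siControl libraries, so that their values are not independent. The differences were mostly positive for members and for all genes alike: the medians were 0.21 and 0.19 in siIGF2BP1, 0.17 and 0.17 in siIGF2BP2, and 0.27 and 0.22 in siIGF2BP3. Less the median of all genes, MPHOSPH10 was at 0.59 in siIGF2BP3, UTP3 at 0.24, IMP3 at 0.25 and IMP4 at -0.07. The members with the largest differences beside MPHOSPH10 in siIGF2BP3 were NOP2 (0.84, SE 0.690) and DDX10 (0.53, SE 0.197), and neither passed the test.

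Between knockdowns no member passed the test, by edgeR, of a difference in slope. MPHOSPH10 differed by 0.61 between siIGF2BP3 and siIGF2BP1 (SE 0.134, edgeR adjusted p = 0.363), by 0.45 between siIGF2BP2 and siIGF2BP1 (SE 0.132, edgeR adjusted p = 1.00) and by 0.16 between siIGF2BP3 and siIGF2BP2 (SE 0.131, edgeR adjusted p = 1.00). Unadjusted p was under 0.05 for 2, 1 and 1 members in these comparisons, against 2.07, 1.95 and 1.87% of all genes, and 0% of all genes were called after adjustment in each. DESeq2 called 1, 0 and 0 members, the 1 being MPHOSPH10 between siIGF2BP3 and siIGF2BP1, against 0.0305, 0.00761 and 0% of all genes. No test separated siIGF2BP3 from siIGF2BP2 in the loss of MPHOSPH10.

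The call of MPHOSPH10 in siIGF2BP3 was lost in the fit to the libraries of these conditions alone (0.80, edgeR adjusted p = 0.102). It was also lost without siControl 0 h replicate 1, without either siControl 6 h library, without either siIGF2BP3 0 h library and without siIGF2BP3 6 h replicate 1, with differences from 0.73 to 0.85 and edgeR adjusted p from 0.0755 to 0.218.

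A ratio of 2 mRNAs within a library needs no scaling between libraries. The log2 ratio of MPHOSPH10 to IMP4 in counts moved from 1.45 at 0 h to -1.57 at 6 h in siControl, a change of -3.03. For siIGF2BP1 the change was -3.004, for siIGF2BP2 -2.53 and for siIGF2BP3 -2.37. The SD over the 4 pairs of libraries was 0.0580 for siControl, 0.0430 for siIGF2BP1, 0.0269 for siIGF2BP2 and 0.0578 for siIGF2BP3. Against UTP3, which decayed more like it, MPHOSPH10 changed by -0.78, -0.78, -0.58 and -0.45 in the same order, with SDs of 0.0642, 0.203, 0.190 and 0.143. Against IMP3 it changed by -0.29, -0.20, 0.15 and 0.03, with SDs of 0.278, 0.265, 0.147 and 0.0524. In every condition this change was about as large as the spread or smaller. These ratios are a description of unequal change and carry no test.

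**Figure D3:**
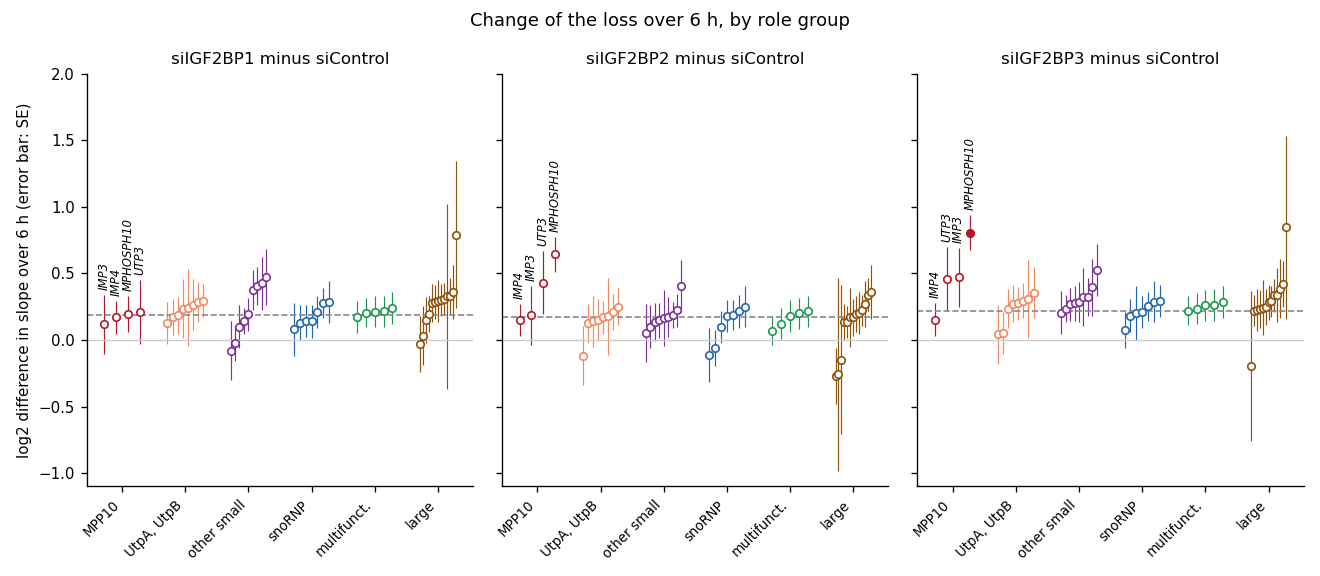
Difference in slope over 6 h (log2, error bars SE) between each knockdown and siControl for the 46 members, grouped by role, with the median of all genes dashed. The filled point is the one called, MPHOSPH10 in siIGF2BP3 at 0.80, and most members sit around the dashed medians of 0.19, 0.17 and 0.22.

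At 0 h, the question was whether a knockdown changed the level of the members before transcription was stopped. In these bulk samples of a single cell line, a change in some of the cells and a change in every cell cannot be told apart. The changes were few and small, with one exception, RRS1 in siIGF2BP2. In siIGF2BP1, 6 of 46 members (13.04%) were called against 15.9% of all genes, in siIGF2BP2 5 (10.9%) against 12.1%, and in siIGF2BP3 7 (15.2%) against 9.39%, by edgeR with adjusted p under 0.05 and TMM scaling. The siControl libraries are shared by all 3 comparisons.

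RRS1 (ENSG00000179041.3, chromosome 8) was at 45.2 and 45.8 CPM in siControl, 46.5 and 45.7 with siIGF2BP1, 25.9 and 27.3 with siIGF2BP2 and 44.5 and 42.0 with siIGF2BP3. The siIGF2BP2 libraries lay far below all others, at 58.5% of siControl, and those of siIGF2BP3, at 95.1%, also lay below siControl without overlap but were not called (-0.07, SE 0.0718, edgeR adjusted p = 0.677). In siIGF2BP2 the log2 difference was -0.77 (SE 0.0730, edgeR adjusted p = 2.99e-10), and it remained called under all 8 other settings and with each of the 4 libraries left out. Against siIGF2BP1 it was -0.81 (SE 0.0736, edgeR adjusted p = 6.39e-11), and siIGF2BP3 lay above siIGF2BP2 by 0.70 (SE 0.0739, edgeR adjusted p = 4.56e-09).
RRS1 was also low in siIGF2BP2 at 3 h (7.09 and 6.91 CPM against 15.8 and 16.5 in siControl) and at 6 h (2.21 and 2.78 against 5.51 and 5.71). Its half-lifetime was 1.45 h in siIGF2BP2 and 1.70 h in siControl, and the difference in slope of -0.27 did not pass the test (SE 0.208, edgeR adjusted p = 0.645). RRS1 shares 11.3% of its exon bases with an unnamed gene on the same strand.

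WDR12 (ENSG00000138442.9, chr2:202874261-203014798, minus strand) moved in opposite directions in siIGF2BP1 and siIGF2BP2. It was at 104 and 99.9 CPM in siControl, 114 and 118 with siIGF2BP1, 84.6 and 79.5 with siIGF2BP2 and 107 and 106 with siIGF2BP3. The siIGF2BP1 and siIGF2BP2 libraries lay on either side of siControl without overlap. WDR12 fell by 0.31 in siIGF2BP2 (SE 0.0540, edgeR adjusted p = 6.64e-05) and rose by 0.20 in siIGF2BP1 (SE 0.0535, edgeR adjusted p = 0.00808), and siIGF2BP2 differed from siIGF2BP1 by -0.50 (SE 0.0543, edgeR adjusted p = 3.47e-09). With ERCC scaling both calls against siControl were lost (siIGF2BP2 -0.23, edgeR adjusted p = 0.0951, and siIGF2BP1 0.16, edgeR adjusted p = 0.385). That of siIGF2BP1 was also lost in 2 of 4 fits with a library left out (edgeR adjusted p up to 0.133), whereas the difference between siIGF2BP2 and siIGF2BP1 was called under all 8 settings and in all 4 such fits. Its partners PES1 and BOP1 were not called in any knockdown at 0 h.

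**Figure D4:**
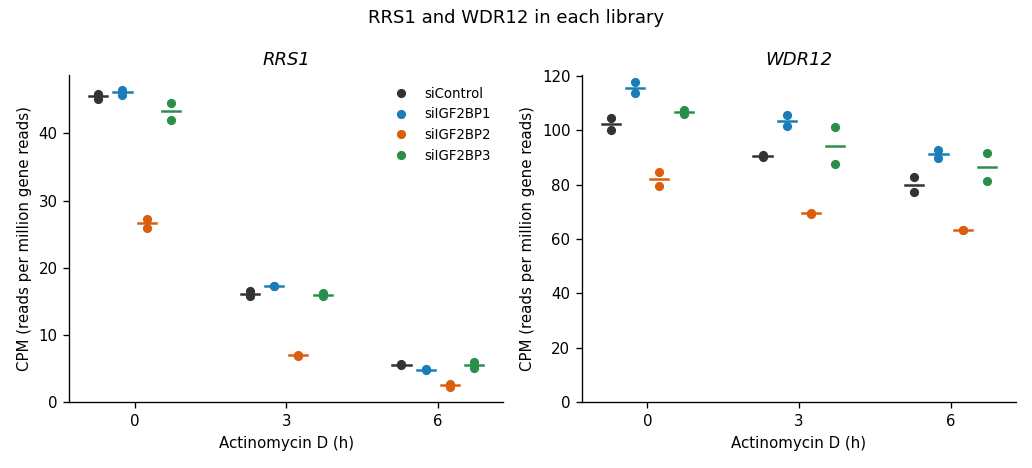
CPM of RRS1 and WDR12 in each of the 24 libraries by time of actinomycin D (points, with a bar at the mean of 2). At 0 h the siIGF2BP2 libraries lie at 25.9 and 27.3 CPM for RRS1 and at 84.6 and 79.5 CPM for WDR12, below all others.

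The other calls against siControl at 0 h were at most 0.20 in size, and none of them held in every fit with a compared library left out. In siIGF2BP1, UTP4 of UtpA rose by 0.18 (edgeR adjusted p = 0.0300), while UTP11, RRP12, DDX21 and NPM1 fell by 0.19, 0.18, 0.11 and 0.09 (edgeR adjusted p = 0.0333, 0.00577, 0.0286 and 0.0195). The background was 9.43% of all genes higher and 6.50% lower. UTP11, a processome protein, was at 65.6 and 63.8 CPM in siControl and 54.3 and 57.6 in siIGF2BP1, and RRP12, an export factor of pre-ribosomes, was at 82.1 and 82.1 against 74.1 and 68.5, both without overlap.

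In siIGF2BP2, UTP20, a large scaffold protein, NHP2 and NCL were higher by 0.16, 0.15 and 0.08 (edgeR adjusted p = 0.00996, 0.0180 and 0.0408), against a background of 6.65% higher and 5.47% lower. UTP20, NHP2 and NCL were called in siIGF2BP2 under 7, 6 and 4 of the 8 other settings. In siIGF2BP3 all 7 called members were higher, against a background of 4.93% higher and 4.47% lower. They were DDX52 (0.20, edgeR adjusted p = 0.0245), UTP20 (0.19, edgeR adjusted p = 0.00412), MPHOSPH10 (0.15, edgeR adjusted p = 0.00884), NOLC1 (0.13, edgeR adjusted p = 0.00776), LYAR (0.13), GNL3 (0.12) and NCL (0.09). MPHOSPH10 was at 264 and 272 CPM in siControl, 271 and 266 with siIGF2BP1, 280 and 283 with siIGF2BP2 and 301 and 292 with siIGF2BP3. The siIGF2BP3 libraries were the highest. The 3 partners of MPHOSPH10 were not called at 0 h in any knockdown. UTP3 nevertheless lay below siControl without overlap, at 86.7% in siIGF2BP2 and 87.8% in siIGF2BP3. IMP3 in siIGF2BP3 and IMP4 in siIGF2BP2, each at 104%, lay above it without overlap.

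Of the 46 members, 38 had a positive difference in siIGF2BP3, 35 in siIGF2BP2 and 19 in siIGF2BP1, against 51.2, 55.0 and 52.5% of all genes. The median difference was 0.05, 0.06 and 0.00 for the members and 0.00, 0.02 and 0.01 for all genes. With the libraries scaled to ERCC, 0 members were called in siIGF2BP1 by edgeR (2 at an unadjusted p under 0.05; DESeq2 with TMM scaling called 7, against 17.1% of all genes), 1 (RRS1) in siIGF2BP2 and 1 (UTP20) in siIGF2BP3, against 4.94, 5.57 and 3.59% of all genes. Leaving out either library of siControl or of the knockdown at 0 h lowered the number of calls in each comparison. The share of all genes called in such fits is not given here, so the drop cannot be read as a result about the members.

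**Figure D5:**
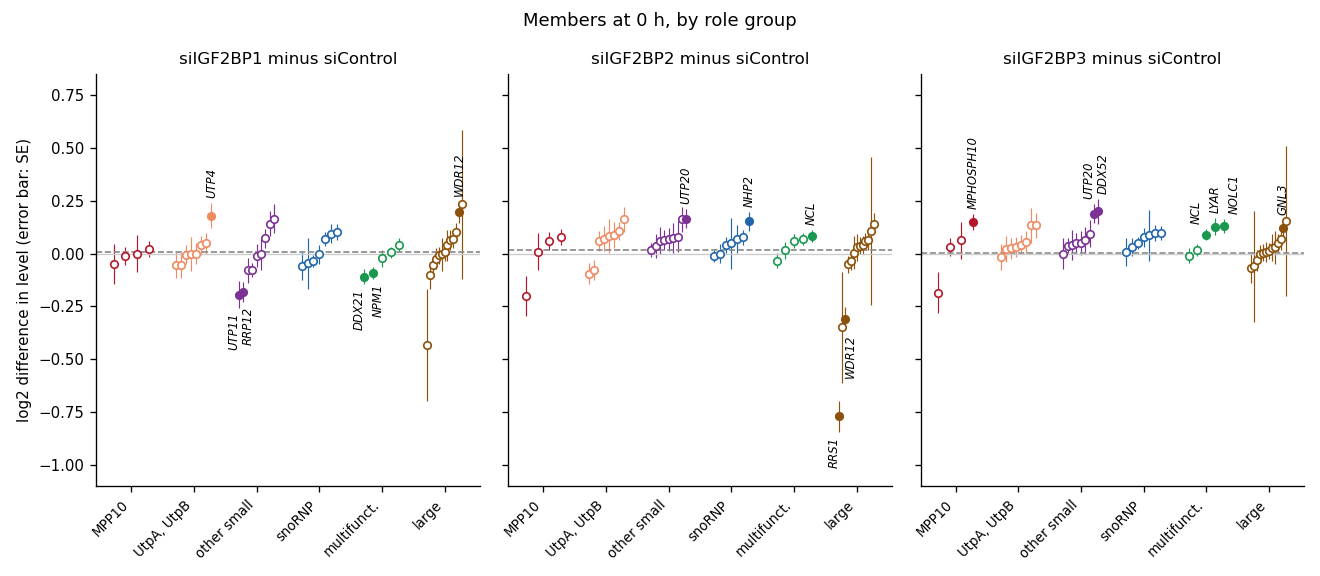
Difference in level at 0 h (log2, error bars SE) between each knockdown and siControl for the 46 members, grouped by role, with called members filled and named and the median of all genes dashed. RRS1 at -0.77 and WDR12 at -0.31 in siIGF2BP2 are the lowest called points, and all 7 called members in siIGF2BP3 are higher.

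The knockdowns were also set against each other at 0 h, a comparison added after the data were seen. Between siIGF2BP2 and siIGF2BP1, 12 members were called (8 higher, 4 lower) against a background of 18.7% (9.04% higher, 9.65% lower). Between siIGF2BP3 and siIGF2BP1, 9 were called, all higher, against 14.3% (6% higher, 8.31% lower). Between siIGF2BP3 and siIGF2BP2, 3 were called (2 higher, 1 lower) against 9.19% (4.28% higher, 4.91% lower). Beside RRS1 and WDR12, RRP12 was higher than in siIGF2BP1 by 0.24 in siIGF2BP2 (SE 0.0476, edgeR adjusted p = 1.87e-04) and by 0.23 in siIGF2BP3 (SE 0.0480, edgeR adjusted p = 6.89e-04). UTP11 was higher than in siIGF2BP1 by 0.25 in siIGF2BP2 (SE 0.0644, edgeR adjusted p = 0.00356) and by 0.29 in siIGF2BP3 (SE 0.0649, edgeR adjusted p = 0.00160).

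Other genes of the pathway, listed by role and not by how they moved, were followed in the same fits. Of 28 other small-subunit genes, 39 other large-subunit genes and 14 RNA polymerase I genes, 28, 37 and 14 were lower over time in siControl, against the same background of 80.3%. Their median half-lifetimes were 6.52, 5.33 and 4.05 h, and the shortest in each list were NGDN at 1.25 h, CEBPZ at 1.84 h and POLR1B, a core subunit of the polymerase, at 1.76 h.

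At 0 h, the small-subunit list had 2, 5 and 4 genes higher and 0 lower in siIGF2BP1, siIGF2BP2 and siIGF2BP3, where 9.43, 6.65 and 4.93% of all genes were higher. The genes named here were picked for their calls after the values were seen. HEATR1, a UtpA protein, was higher by 0.25, 0.35 and 0.28 (edgeR adjusted p = 3.81e-05, 1.13e-07 and 1.63e-05), and NOP9 by 0.28, 0.25 and 0.22 (edgeR adjusted p = 1.36e-05, 7.57e-05 and 0.000941). The large-subunit list had 2, 3 and 2 genes higher and 2, 0 and 0 lower, with PUM3 higher by 0.27 in siIGF2BP2 (edgeR adjusted p = 0.000162) and NIP7 at -0.22 in siIGF2BP1 (edgeR adjusted p = 0.000584). Of the RNA polymerase I genes 1, 3 and 1 were higher and 0 lower, and the subunit POLR1G was higher by 0.17, 0.32 and 0.34 (edgeR adjusted p = 0.0376, 9.12e-05 and 7.56e-05).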

How the data were processed

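The 24 deposited count files held raw read counts per gene that the authors made with HTSeq, one file per library, after trimming and alignment. The submitters' processing notes name Trimmomatic 0.39, HISAT2 2.1.0 and the build hg38, and the study's methods a strand-aware alignment and an older GENCODE release than release 44, which was used here for lengths, 3′ UTRs and overlaps. The strand setting of the counting is not given in the sources used here. Libraries were made with a stranded total-RNA kit and read from one end over 100 bases. Summary entries that name no gene (13.551 to 17.064% of reads) and 45 duplicate entries of the Y pseudoautosomal region were left out of library sizes and tests. Symbols were matched for 58207 of 58676 genes.

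Genes with at least 1 CPM in at least 2 libraries were tested (13136) with the quasi-likelihood test of edgeR 4.0.16 in R 4.3.3, in fits to all 24 libraries, with Benjamini-Hochberg adjustment over all genes. Levels were compared with TMM scaling and 12 group means. Loss was fitted with an intercept and a slope for each siRNA on the scale of the ERCC total, given as log2 change over 6 h. Spike-ins were added at 0.02 µl per µg of total RNA, so this scale is relative to total RNA. Half-lifetimes are ln 2 over the mean of the first-order rates at 3 h and 6 h, for genes with a mean of at least 1 CPM. DESeq2 1.42.0 and limma 3.58.1 were used for alternatives and checks, with Python 3.11.15, pandas 2.3.3 and numpy 2.4.6, and the fits were tested on simulated data with 200 changed genes.

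The members and gene lists were chosen with earlier results of these data known. Named genes were the MPP10 complex, up to 4 called members per direction in each comparison of levels, the 5 shortest and longest half-lifetimes, members called for a difference in slope with the largest others, and the most and least abundant member of each role group, and further called members and examples were named after their values were seen. Alternatives were other scalings, tools and filters, fits to fewer libraries or times, a replicate block and each library left out.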

Additional observations from a re-analysis of the deposited data

Results flagged for a closer look

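MPHOSPH10 was lost more slowly in siIGF2BP3 than in siControl, by 0.80 on the log2 scale over 6 h, where the median of all genes was 0.22. It was flagged because the test of the difference between the 2 slopes passed its threshold (edgeR adjusted p = 0.0199). The gene was listed with earlier results of these data known, so the pass is no independent support. The call was lost in the fit to the compared conditions alone (edgeR adjusted p = 0.102). It was also lost in some fits with 1 library left out, in which the difference ran from 0.73 to 0.85. At 6 h the siControl libraries were at 7.40 and 6.73% of the 0 h mean and the siIGF2BP3 libraries at 13.1 and 11.6%.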

How the results depend on the processing

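With ERCC in place of TMM scaling at 0 h, 0, 1 and 1 members were called in siIGF2BP1, siIGF2BP2 and siIGF2BP3 against siControl, and 4 between siIGF2BP3 and siIGF2BP1, while MPHOSPH10 in siIGF2BP1 turned to -0.0108 and RRS1 between siIGF2BP3 and siIGF2BP1 to 0.0056. In siControl over time, TMM scaling turned BOP1, FBL, IMP4, NOC2L, NOP10 and NPM1 to 0.40, 0.69, 0.0717, 0.48, 0.63 and 0.59, and with 0 h and 6 h alone to 0.40, 0.69, 0.0719, 0.48, 0.63 and 0.59, and scaling to gene reads turned BOP1, FBL, NOC2L, NOP10 and NPM1 to 0.0825, 0.37, 0.17, 0.31 and 0.27. On the TMM scale 22 of 45 members kept a half-lifetime. The share of all genes is not given for this count or for the 4 calls between siIGF2BP3 and siIGF2BP1.

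For differences in slope, TMM scaling turned IMP3 to -0.0852 in siIGF2BP1 and -0.0045 in siIGF2BP2, and IMP4 to -0.0264, -0.0468 and -0.0739 in siIGF2BP1, siIGF2BP2 and siIGF2BP3. Scaling to gene reads turned IMP3 in siIGF2BP1 to -0.0650 and IMP4 to -0.0089, -0.0029 and -0.0457. TMM scaling with 0 h and 6 h alone, added after the data were seen, gave -0.0782 and -0.0059 for IMP3 in siIGF2BP1 and siIGF2BP2, -0.0257, -0.0471 and -0.0733 for IMP4, and -0.0030 for MPHOSPH10 in siIGF2BP1. None of these differences had been called.

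The count of members called for a difference in slope became 1 in siIGF2BP2 under DESeq2, scaling to gene reads, no filter, and 0 h and 6 h alone with either scale. It became 1 between siIGF2BP3 and siIGF2BP1 under these settings and under TMM scaling, and 1 between siIGF2BP2 and siIGF2BP1 under scaling to gene reads and under TMM with 0 h and 6 h alone. In siIGF2BP3 against siControl it was 3 with 0 h and 6 h alone and 0 in the fit to these conditions only. At 0 h, the fit to the compared libraries only gave 10 calls in siIGF2BP2, 14 between siIGF2BP3 and siIGF2BP1 and 7 between siIGF2BP3 and siIGF2BP2, median-of-ratios scaling gave 5 in the last, and no filter gave 4 in siIGF2BP3. For most of these settings the share of all genes called is not given here, so the counts cannot be read against a background. The cause was not tested.

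With each library left out in turn, calls at 0 h ranged from 2 to 7 in siIGF2BP1, 2 to 7 in siIGF2BP2 and 1 to 7 in siIGF2BP3 against siControl, and from 5 to 12 (siIGF2BP2 against siIGF2BP1), 2 to 12 (siIGF2BP3 against siIGF2BP1) and 2 to 4 (siIGF2BP3 against siIGF2BP2). In siControl over time they ranged from 42 to 45, and for differences in slope from 0 to 4 in siIGF2BP3 against siControl (4 without siControl 0 h replicate 2) and stayed at 0 elsewhere. The share of all genes called is not given for any fit with a library left out, so counts from such fits have no background. For IMP3 the slope difference lay between -0.11 and 0.37 with siIGF2BP1 and between -0.0274 and 0.33 with siIGF2BP2. That of UTP3 ran from -0.0214 to 0.40 in siIGF2BP1, and that of NOP2 between siIGF2BP3 and siIGF2BP1 from -0.28 to 1.07.

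The labels do not say what a shared replicate number marks, although plates of the 3 times came from re-seeding of a transfected plate. Same-numbered deviations at 0 h correlated at -0.0405, -0.0238 and -0.0025 between siControl and siIGF2BP1, siIGF2BP2 and siIGF2BP3. Between times they correlated at 0.124, 0.123 and 0.164 in siIGF2BP3 and at -0.0103 to 0.0389 in the other siRNAs, so that the numbers were not treated as pairs. With the replicate number as a block, 7, 6 and 7 members were called at 0 h against siControl, 44 in siControl over time and 0, 0 and 1 for differences in slope. The share of all genes called with the block is not given here. A straight line through the half-lifetime times was not run apart from the slope itself. With 2 libraries per group, small changes in the loss of short-lived mRNAs may have gone undetected.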
